A study of Mus musculus with 12 samples.

Results

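The 58 genes described here build and run the machinery of cell division. They were chosen by symbol, with earlier results of these data known, and are 58 of the 55401 gene identifiers counted in each library. Setting them beside all genes is therefore not an independent test. By role they fall into 10 groups: chromatin markers of dividing cells (2 genes), kinetochore (13), spindle checkpoint (5), mitotic kinases and cyclins (6), chromosomal passenger complex (3), kinesin motors (8), condensin (6), cohesin and its release (6), the anaphase-promoting complex (2), and spindle assembly and cytokinesis (7). All 58 were found in the files and all 58 passed the filter on low counts. In a cell that divides, condensin compacts the chromosomes, kinetochores tie them to the microtubules of the spindle, the checkpoint holds the cell until each chromosome is attached, and the anaphase-promoting complex then releases the sister chromatids that cohesin had held together. Most of these genes are transcribed only late in the cell cycle, so that their RNA in a cell population depends on how many cells are dividing. Microglia, the resident macrophages of the brain, divide rarely in the healthy adult brain and proliferate after ischemia.

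RNA was measured in microglia sorted as CD45int CD11b+ cells from the brains of male mice, with 3 libraries in each of 4 groups. WT mice carried Cx3cr1 wt/wt:Hdac3 loxp/loxp and miKO mice Cx3cr1 CreER/wt:Hdac3 loxp/loxp, so that both had floxed *Hdac3* (a histone deacetylase) and both received tamoxifen, at 6-8 weeks of age. Only miKO mice carried CreER, which replaced 1 allele of *Cx3cr1* and is active in other Cx3cr1-expressing cells too. Surgery followed at least a month after tamoxifen, a delay that the paper chose so that circulating monocytes would be renewed. The paper reports *Hdac3* RNA as unchanged in infiltrated macrophages sorted after tFCI. In WT-tFCI and miKO-tFCI the mice had transient focal cerebral ischemia (tFCI) of 60 min and microglia were taken on day 3, whereas WT-Sham and miKO-Sham had the sham operation. Each library pooled 3-4 hemispheres, and p-values measure the spread between these pools.

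The libraries held between 7697864 and 9452222 counts on genes, and the median count of the members ranged from 18 to 25 in the Sham libraries and from 170.5 to 333 in the tFCI libraries. Counting error was therefore larger after Sham, and *Bub1* had at most 3 counts in each miKO-Sham library. The targeted gene *Hdac3* was at 35, 44 and 46.4 CPM in WT-Sham and 25.8, 25 and 20.9 in miKO-Sham, and at 54, 52.9 and 43.9 CPM in WT-tFCI and 36, 27.1 and 28.9 in miKO-tFCI, without overlap between the genotypes. (CPM are counts scaled to a common library size, adjusted by TMM.) The defining markers of microglia were present in every library. The labels place replicate 1 of each group in batch 1 and the others in batch 2, without saying what the batches are. miKO-Sham replicates 1 and 2 had a chi-square per degree of freedom of 2.82 over their counts, against 3.65 to 76.6 in all other pairs of replicates. By the labels these 2 libraries are from different batches, and all other pairs from different batches lay between 19.2 and 76.6. Whether the 2 libraries are separate pools cannot be told from the sources used here. The genes of miKO-Sham replicate 2, which the labels place in batch 2, deviated in the direction of batch 1 (r = 0.16 across genes, against -0.26 for replicate 3). The counts of calls that rest on miKO-Sham are also given without either library and with both added up.

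Seen over the whole set, the mitotic genes were low after Sham and high after tFCI, and the rise was smaller in miKO mice. Their summed level was 659, 643 and 637 CPM in WT-Sham, 718, 696 and 702 in miKO-Sham, 2209.7, 2686 and 2623 in WT-tFCI, and 1563, 1616 and 1768 in miKO-tFCI. The 4 groups did not overlap in this sum, and 47 of the 58 genes had each tFCI library above each Sham library, which held for 12.9% of all genes tested. After Sham most of the sum came from cohesin, condensin and checkpoint genes. Their means were 252.3, 168.4 and 103.5 CPM in WT-Sham and 216.2, 197.7 and 122.5 in miKO-Sham. The gap between the Sham groups in the sum therefore follows abundant genes and does not speak for the whole set. A gene was called changed when its adjusted p was below 0.05 and its log2 fold change exceeded 0.58 in either direction (edgeR's quasi-likelihood test over 16451 genes, Benjamini-Hochberg). In WT-tFCI vs. WT-Sham, 51 of the 58 members rose and 0 fell, where 32.4% of all genes tested were called, 20.7% higher and 11.7% lower. Their median log2 fold change was 3.99, beside 0.02 over all genes. In miKO-tFCI vs. miKO-Sham, 49 rose and 0 fell, against 35.6% of all genes, 21.7% higher and 13.9% lower, with a median of 2.70. Without miKO-Sham replicate 1 the count in miKO mice was 48, beside 28.1% of all genes, without replicate 2 it was 51 (35.3%), with replicate 2 set to batch 1 it was 50 (39.3%), and with both replicates added up it was 49 (36.0%), and the medians of the 58 stayed between 2.64 and 2.81. Calls of 49 of the 51 genes in WT mice held under every alternative in which they were tested, all but *Cenpk* and *Ncaph2*, and in miKO mice 47 of 49, all but *Kif18a* and *Kif20b*. In bulk RNA a smaller number of dividing cells and less mitotic RNA in each dividing cell cannot be told apart.

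**Figure D1:**
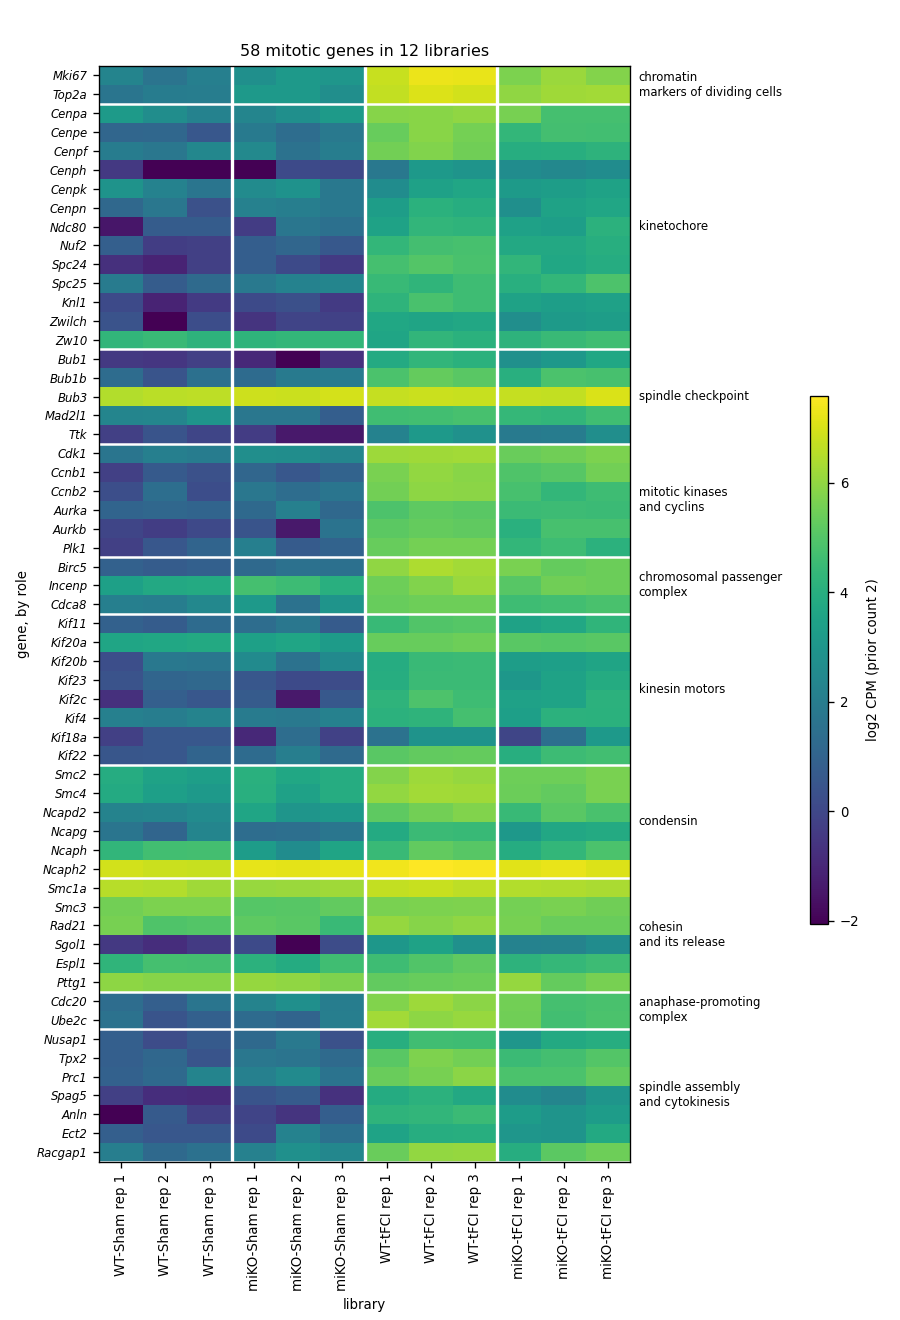
Level of the 58 genes, as log2 CPM with a prior count of 2, in rows by role and in columns by library, 3 libraries a group. The Sham columns are dark for most rows and the WT-tFCI columns bright, with miKO-tFCI between them, while *Bub3*, *Ncaph2*, *Smc1a*, *Smc3* and *Pttg1* are bright in all 12 libraries.

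Between the genotypes after tFCI, 22 of the 58 members (37.9%) were lower in miKO-tFCI than in WT-tFCI and 0 were higher, where 8.76% of all genes were called, 4.80% lower and 3.96% higher. Those 22 ranged in log2 fold change from -1.57 to -0.66, the median of the 58 was -0.70 (0.04 over all genes), and 53 of 58 lay below 0. In 43 of the 58 all miKO-tFCI libraries lay below all WT-tFCI libraries, which held for 13.3% of the genes tested. As differences of log2 CPM with a prior count of 2, the medians were -0.62 within batch 1 and -0.67 within batch 2. The number of calls depended on single libraries. It was 7 without WT-tFCI replicate 2 and 8 without WT-tFCI replicate 3, where 4.01% and 3.6% of all genes were called. It was 11 without miKO-tFCI replicate 2 (7.61% of all genes) and 14 without miKO-tFCI replicate 1 (6.76%), and 10 without a batch term (4.31%), all of them lower. Other settings raised the number of calls, to 33 with the tFCI groups fitted alone (16.4% of all genes) and to 32 without the filter on low counts (5.65%). Calls of 7 members held under every alternative in which they were tested: *Mki67*, *Top2a*, *Cenpe*, *Cenpf*, *Cdk1*, *Ccnb2* and *Ube2c*. In the 58 genes as a whole, 49 had a mean in miKO-tFCI that was above both Sham means and below that of WT-tFCI, as did 10.1% of all genes tested.

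**Figure D2:**
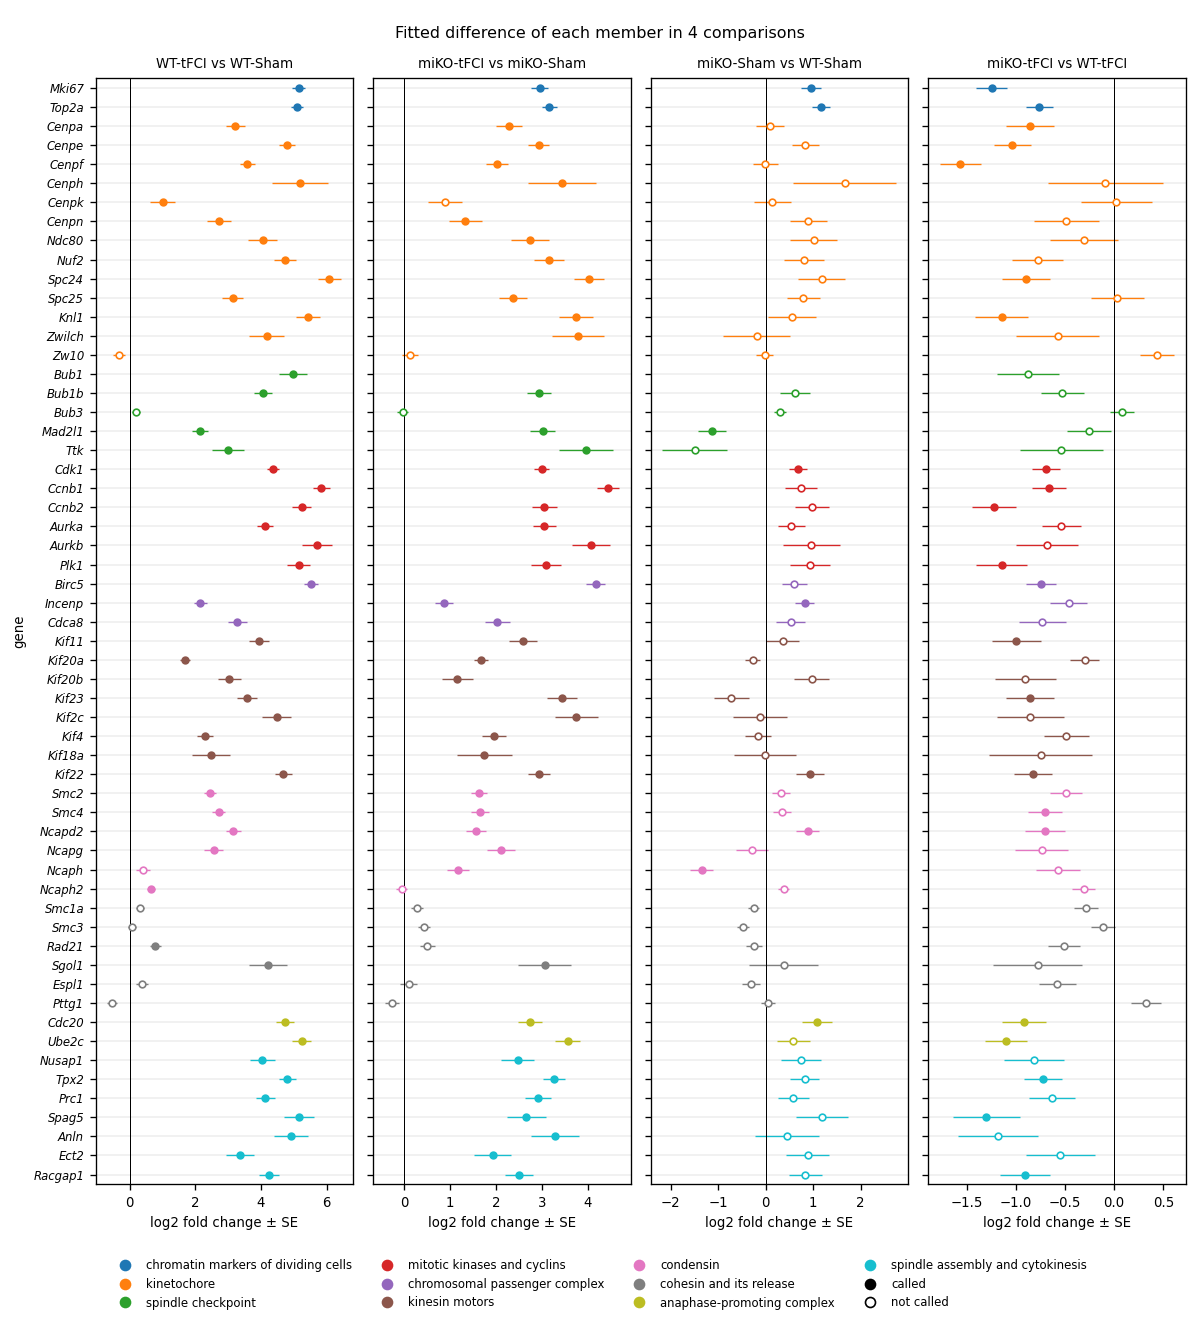
Fitted log2 fold change with its standard error for each member in 4 comparisons, each with a scale of its own, colored by role and filled where called. Nearly all points lie to the right of 0 in both comparisons of tFCI with Sham, and 53 of 58 lie to the left of 0 in miKO-tFCI vs. WT-tFCI; *Bub1* is left out where miKO-Sham is compared.

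The promoters of these genes share short sequences that the choice of members did not use. Mitotic promoters are known for CCAAT boxes, which bind the factor NF-Y, and for the cell cycle genes homology region (CHR), which binds the DREAM and MuvB complexes. RefSeq windows (GRCm38.p6) from 250 bases before to 50 bases after the gene start were at hand for 50 of the 58 members, and were searched on both strands for the CHR as TTTGAA or TTCGAA and for CCAAT. A CHR match was found in 37 of the 50 windows (74%), compared with 19.4% of all 27025 windows of that length, and a CCAAT match in 35 (70%), compared with 37.9%. Both were found in 30 (60%), compared with 7.7% of all windows. In 58 windows of other mitotic genes, from the longer list described below, the CHR share was 55.2% and the CCAAT share 67.2%. Both were found in 41.4% of those 58. The CCAAT share of the members was thus near that of other mitotic genes. Among the 19 members with a window that were lower in miKO-tFCI, 16 held a CHR match (84.2%) and 17 a CCAAT match (89.5%). Among the 31 that were not called, these were 21 (67.7%) and 18 (58.1%). Those 31 include the 7 members with a window that were not called after tFCI in WT mice. Of these 7, 3 held a CHR match and 3 a CCAAT match (42.9% each). Matches clustered near the gene start. The 50 bases after it held a CHR match in 21 of 50 members (42%, and in 2.55% of all windows), and the 50 bases before it held a CCAAT match in 21 (42%, and in 9.64% of all windows). A match is a stretch of letters and not a measured site, and no binding was measured here.

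**Figure D3:**
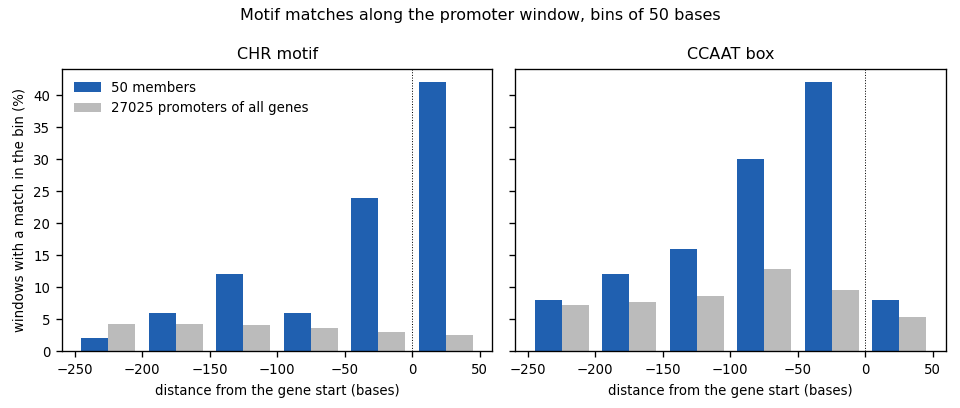
Share of promoter windows with a match to the CHR (left) or the CCAAT box (right) in bins of 50 bases, by distance from the gene start, for 50 members (blue) and 27025 promoters of all genes (gray). Blue bars reach 42% in the bin after the start for the CHR and in the bin before it for CCAAT, and gray bars stay at 12.9% or less.

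To show what these promoters look like, the 250 bases before the gene start follow for the members that were described library by library and had the smallest p in miKO-tFCI vs. WT-tFCI, 5′ to 3′ on the strand of the gene, with matches to the CHR or CCAAT in capitals (TTCAAA and ATTGG are the same motifs on the other strand, and in Ube2c a match on each strand overlaps). Mki67 has 2 CHR matches and 3 CCAAT matches, Top2a 4 and 6, Ube2c 1 and 6, and Ccnb2 1 and 3. Cenpf has 2 CCAAT matches here and a CHR match just after its start, outside the stretch shown, and so has Ccnb2 a further CHR match. Birc5, which changed with the others, holds neither set of letters in its window.
Mki67 (chr7:135716380-135716629, minus strand): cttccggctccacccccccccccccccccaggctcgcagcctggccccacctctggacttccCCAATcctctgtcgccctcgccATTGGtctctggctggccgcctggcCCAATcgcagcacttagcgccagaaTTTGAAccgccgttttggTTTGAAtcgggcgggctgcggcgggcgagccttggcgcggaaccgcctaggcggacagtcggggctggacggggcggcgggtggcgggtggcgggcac
Cenpf (chr1:189688087-189688336, minus strand): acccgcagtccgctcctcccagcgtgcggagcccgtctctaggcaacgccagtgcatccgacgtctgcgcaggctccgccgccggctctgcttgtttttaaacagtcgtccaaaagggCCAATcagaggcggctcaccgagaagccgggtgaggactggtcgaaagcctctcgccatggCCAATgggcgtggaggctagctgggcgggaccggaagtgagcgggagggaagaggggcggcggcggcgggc
Ccnb2 (chr9:70421555-70421804, minus strand): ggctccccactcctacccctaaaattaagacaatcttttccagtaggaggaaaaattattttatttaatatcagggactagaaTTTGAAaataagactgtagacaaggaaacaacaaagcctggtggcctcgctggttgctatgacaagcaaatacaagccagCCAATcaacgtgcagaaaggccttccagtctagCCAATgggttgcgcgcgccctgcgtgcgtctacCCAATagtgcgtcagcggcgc
Top2a (chr11:99024190-99024439, minus strand): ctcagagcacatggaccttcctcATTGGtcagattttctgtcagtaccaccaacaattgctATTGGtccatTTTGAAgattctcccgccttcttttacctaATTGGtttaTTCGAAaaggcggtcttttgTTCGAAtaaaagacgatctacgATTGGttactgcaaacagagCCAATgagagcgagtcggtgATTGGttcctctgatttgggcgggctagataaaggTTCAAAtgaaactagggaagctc
Ube2c (chr2:164769679-164769928, plus strand): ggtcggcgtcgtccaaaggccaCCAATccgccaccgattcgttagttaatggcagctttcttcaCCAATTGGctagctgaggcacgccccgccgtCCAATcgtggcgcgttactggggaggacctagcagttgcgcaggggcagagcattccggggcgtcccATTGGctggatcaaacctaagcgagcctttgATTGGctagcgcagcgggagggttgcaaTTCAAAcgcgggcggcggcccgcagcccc
Birc5 (chr11:117848987-117849236, plus strand): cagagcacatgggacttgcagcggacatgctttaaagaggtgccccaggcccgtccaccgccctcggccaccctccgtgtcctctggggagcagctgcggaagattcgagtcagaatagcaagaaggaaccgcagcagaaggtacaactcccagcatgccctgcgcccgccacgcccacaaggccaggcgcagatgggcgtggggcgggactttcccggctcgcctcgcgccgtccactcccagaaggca

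The 2 chromatin markers of dividing cells were called in all comparisons. *Mki67* (ENSMUSG00000031004.8, minus strand of chromosome 7, from 135689784 to 135716361) encodes Ki-67, which coats mitotic chromosomes and is the usual marker of proliferation. It was at 4.69, 2.91 and 4.0 CPM in WT-Sham, 6.53, 8.46 and 7.68 in miKO-Sham, 109.9, 157 and 151 in WT-tFCI, and 50.8, 69.4 and 55.6 in miKO-tFCI. None of the 4 groups overlapped, with WT-Sham lowest, then miKO-Sham, miKO-tFCI and WT-tFCI. On the log2 scale it rose by 5.15 ± 0.20 (SE) in WT and by 2.95 ± 0.18 in miKO mice after tFCI (adjusted p = 6.69e-11 and 1.31e-08, edgeR, Benjamini-Hochberg). The difference of miKO-tFCI from WT-tFCI was -1.24 ± 0.16 (adjusted p = 1.27e-04, edgeR with the same adjustment). *Top2a* (ENSMUSG00000020914.17, minus strand of chromosome 11, from 98992943 to 99024189), the topoisomerase that untangles sister chromatids, was at 3.01, 3.7 and 3.8 CPM in WT-Sham, 8.75, 8.6 and 6.28 in miKO-Sham, 105, 135 and 122 in WT-tFCI, and 63.5, 74.3 and 75.3 in miKO-tFCI. Its groups stood in the same order without overlap. The rise after tFCI was 5.09 in WT and 3.17 in miKO mice, and miKO-tFCI differed from WT-tFCI by -0.76 ± 0.14 (adjusted p = 0.00244, edgeR, Benjamini-Hochberg).

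Among the mitotic kinases and cyclins, which drive entry into mitosis, 6 of 6 rose in both genotypes after tFCI and 4 were lower in miKO-tFCI. *Cdk1* (ENSMUSG00000019942.13, minus strand of chromosome 10, from 69335146 to 69352938), the kinase at the center of this switch, was at 3.01, 4.03 and 3.69 CPM in WT-Sham, 6.25, 6.1 and 4.87 in miKO-Sham, 72.5, 73.6 and 75.5 in WT-tFCI, and 41.7, 44.2 and 51.5 in miKO-tFCI. The WT-tFCI libraries lay close together, and each miKO-tFCI library lay below them. *Ccnb2* (ENSMUSG00000032218.7, minus strand of chromosome 9, from 70407692 to 70421547), a B-type cyclin that activates Cdk1, was at 0.962, 2.46 and 0.923 CPM in WT-Sham, 3.19, 2.36 and 2.95 in miKO-Sham, 45.5, 60.7 and 60.1 in WT-tFCI, and 27.2, 19.7 and 23.7 in miKO-tFCI. Both were lower in miKO-tFCI, with a log2 fold change of -0.69 ± 0.14 for *Cdk1* and -1.23 ± 0.22 for *Ccnb2* (adjusted p = 0.00584 and 0.00244, edgeR, Benjamini-Hochberg). *Ccnb1*, its sister cyclin, and the kinase *Plk1* were also lower, at -0.66 and -1.14 (adjusted p = 0.0239 and 0.0112, edgeR, Benjamini-Hochberg). The Aurora kinases were not called, with -0.54 ± 0.20 for *Aurka* and -0.68 ± 0.31 for *Aurkb*. Per kilobase of exon, *Ccnb2* had a level of 36.2 CPM per kb in WT-tFCI and 15.4 in miKO-tFCI, and *Plk1* 20.4 and 9.26. A part of the sequence of *Ccnb1* (23.4% of its stretches of 50 bases) also occurs in other genes, among which a pseudogene of *Ccnb1* shares the most, so its counts are less certain.

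Both genes grouped with the anaphase-promoting complex, the ubiquitin ligase that ends mitosis, moved with the kinases. *Ube2c* (ENSMUSG00000001403.13, plus strand of chromosome 2, from 164769898 to 164778822), its ubiquitin-conjugating enzyme, was at 2.76, 1.12 and 1.64 CPM in WT-Sham, 2.22, 1.8 and 3.97 in miKO-Sham, 76, 62 and 68.4 in WT-tFCI, and 45, 24.8 and 28.7 in miKO-tFCI. *Cdc20* (ENSMUSG00000006398.15, minus strand of chromosome 4, from 118432901 to 118437352), its activator, was at 2.4, 1.57 and 2.98 CPM in WT-Sham, 4.58, 6.38 and 3.84 in miKO-Sham, 54.3, 71 and 60.3 in WT-tFCI, and 45.3, 26.4 and 27.8 in miKO-tFCI. In neither did miKO-tFCI overlap WT-tFCI, and in both miKO-tFCI replicate 1 was the highest of its group. The log2 fold change in miKO-tFCI vs. WT-tFCI was -1.10 ± 0.21 for *Ube2c* and -0.92 ± 0.22 for *Cdc20* (adjusted p = 0.00402 and 0.0155, edgeR, Benjamini-Hochberg). Exons of both overlap exons of a gene on the other strand (*Tnnc2* and *Elovl1*), and the library kit does not mark strand.

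**Figure D4:**
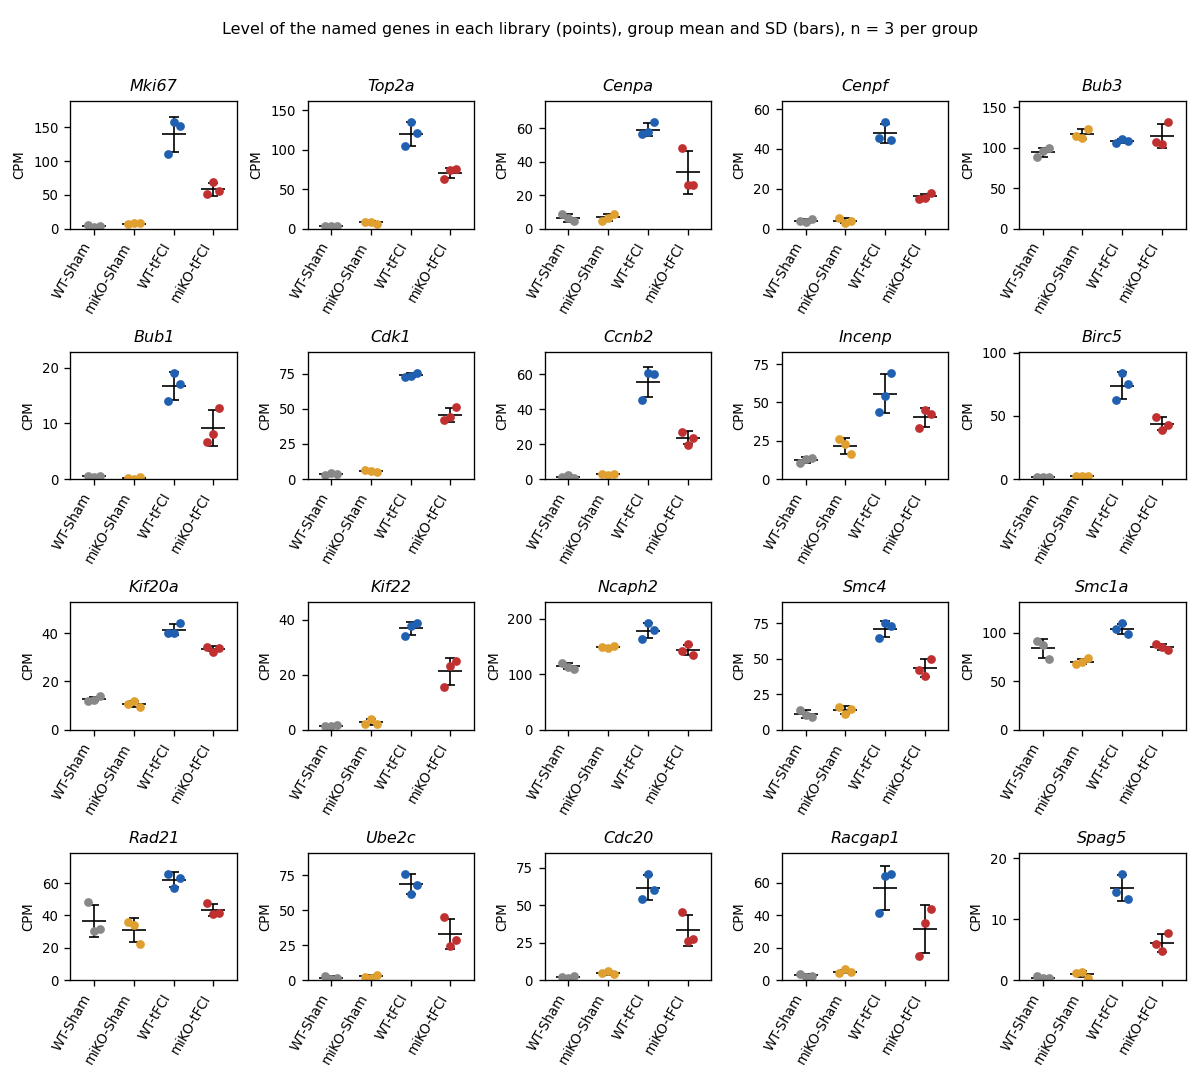
CPM of the 20 genes given library by library, with a panel and a linear scale starting at 0 for each gene, 3 libraries a group as points and the mean with SD as bars. In *Mki67*, *Top2a*, *Cenpf*, *Cdk1* and *Ccnb2* the red points (miKO-tFCI) lie below all blue points (WT-tFCI) and above the Sham points, whereas *Bub3* and *Smc1a*, which were not called after tFCI, are high in all groups.

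Of the 13 kinetochore genes, 12 rose in WT-tFCI and 11 in miKO-tFCI, and 5 were lower in miKO-tFCI than in WT-tFCI. *Cenpa* (ENSMUSG00000029177.9, plus strand of chromosome 5, from 30666777 to 30674830), the histone variant that marks the centromere, was at 9.02, 6.05 and 4.41 CPM in WT-Sham, 4.72, 6.38 and 8.84 in miKO-Sham, 56.5, 57.5 and 63.4 in WT-tFCI, and 48.3, 26.3 and 26.1 in miKO-tFCI. Its miKO-tFCI libraries were spread more widely than those of WT-tFCI, replicate 1 being the nearest to WT. *Cenpf* (ENSMUSG00000026605.14, minus strand of chromosome 1, from 189640606 to 189688086), a large protein of the outer kinetochore, was at 3.73, 3.14 and 5.03 CPM in WT-Sham, 5.28, 2.77 and 3.84 in miKO-Sham, 45.6, 53.3 and 44.5 in WT-tFCI, and 15.1, 15.6 and 17.8 in miKO-tFCI. It had the lowest log2 fold change of the 58 between the tFCI groups, -1.57 ± 0.21, beside -0.86 ± 0.25 for *Cenpa* (adjusted p = 1.59e-04 and 0.0393, edgeR, Benjamini-Hochberg). *Cenpe*, the kinesin of the kinetochore, *Knl1*, the scaffold on which checkpoint proteins assemble, and *Spc24* were lower, at -1.04, -1.14 and -0.89 (adjusted p = 0.00252, 0.0139 and 0.0287, edgeR, Benjamini-Hochberg).

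The 4 subunits of the Ndc80 complex, which grips the microtubule end, varied in level. In WT-Sham they lay between 0.144 CPM per kb (*Nuf2*) and 0.755 (*Spc25*), and in WT-tFCI between 2.49 (*Ndc80*) and 11.1 (*Spc24*). *Spc24* rose by 6.09 ± 0.36 on the log2 scale in WT, the largest rise of the 58 genes (adjusted p = 4.21e-09, edgeR, Benjamini-Hochberg). In miKO-tFCI vs. WT-tFCI the values were -0.31 ± 0.35 for *Ndc80*, -0.78 ± 0.26 for *Nuf2* and 0.03 ± 0.27 for *Spc25*, none of which was called. *Zw10*, which also works in membrane transport outside mitosis, was not called after tFCI in either genotype (-0.33 ± 0.18 in WT and 0.13 ± 0.17 in miKO).

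Spindle checkpoint genes rose in both genotypes except *Bub3*, and 0 of 5 were called between the tFCI groups. There 8.76% of all genes were called, so that 0 of 5 is near that share. *Bub3* (ENSMUSG00000066979.6, plus strand of chromosome 7, from 131560222 to 131571895) was at 88.3, 96 and 99 CPM in WT-Sham, 114, 112 and 123 in miKO-Sham, 106, 111 and 108 in WT-tFCI, and 107, 104 and 131 in miKO-tFCI. It changed by 0.20 ± 0.12 in WT and -0.03 ± 0.12 in miKO mice after tFCI on the log2 scale (adjusted p = 0.219 and 0.875, edgeR, Benjamini-Hochberg). *Bub1* (ENSMUSG00000027379.13, minus strand of chromosome 2, from 127801122 to 127831865), the checkpoint kinase, was at 0.481, 0.448 and 0.616 CPM in WT-Sham, 0.278, 0 and 0.384 in miKO-Sham, 14, 19 and 17.1 in WT-tFCI, and 6.61, 8.17 and 12.7 in miKO-tFCI. All miKO-tFCI libraries lay below all WT-tFCI libraries, yet the difference of -0.88 ± 0.32 did not pass the test (adjusted p = 0.0913, edgeR, Benjamini-Hochberg). *Bub1b*, *Mad2l1* and *Ttk* differed by -0.53 ± 0.22, -0.26 ± 0.23 and -0.54 ± 0.42, also not called. The checkpoint group kept 90.6% of its WT-tFCI summed level in miKO-tFCI, most of which was *Bub3*.

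The chromosomal passenger complex corrects faulty attachments and carries the kinase encoded by *Aurkb*. *Birc5* (ENSMUSG00000017716.15, plus strand of chromosome 11, from 117849251 to 117855743), also called survivin, was at 1.68, 1.46 and 1.64 CPM in WT-Sham, 2.08, 2.64 and 2.56 in miKO-Sham, 62.6, 83.9 and 75.2 in WT-tFCI, and 49.5, 39.2 and 42.9 in miKO-tFCI. *Incenp* (ENSMUSG00000024660.9, minus strand of chromosome 19, from 9872296 to 9899551), the scaffold of the complex, was at 10.5, 13.2 and 13.8 CPM in WT-Sham, 26.4, 22.9 and 16.1 in miKO-Sham, 44, 54 and 69.2 in WT-tFCI, and 33.5, 44.9 and 42.8 in miKO-tFCI. The tFCI groups of *Incenp* overlapped, those of *Birc5* did not. *Birc5* was lower in miKO-tFCI (-0.75 ± 0.15, adjusted p = 0.00539), and *Incenp* was not called (-0.46 ± 0.19, adjusted p = 0.139, edgeR, Benjamini-Hochberg), nor was *Cdca8* (-0.73 ± 0.24). Without WT-tFCI replicate 2 the call of *Birc5* was lost. Per kilobase, the complex with *Aurkb* spanned 0.238 (*Aurkb*) to 2.89 CPM per kb (*Incenp*) in WT-Sham, a ratio of 12.1, and 8.21 (*Cdca8*) to 21.7 (*Birc5*) in WT-tFCI, a ratio of 2.65.

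All 8 kinesin motors, which slide, cross-link or shorten spindle microtubules or move chromosomes, rose in both genotypes after tFCI, and 3 were lower in miKO-tFCI. *Kif22* (ENSMUSG00000030677.8, minus strand of chromosome 7, from 127027729 to 127042471), which pushes chromosome arms, was at 1.2, 1.23 and 1.85 CPM in WT-Sham, 2.22, 3.88 and 2.18 in miKO-Sham, 34.1, 38 and 38.7 in WT-tFCI, and 15.5, 23.2 and 25 in miKO-tFCI. *Kif20a* (ENSMUSG00000003779.16, plus strand of chromosome 18, from 34624613 to 34633277), needed for cytokinesis, was at 12, 12.4 and 13.7 CPM in WT-Sham, 10.4, 11.9 and 9.22 in miKO-Sham, 40.1, 39.9 and 44 in WT-tFCI, and 34.4, 32.3 and 34 in miKO-tFCI. Each miKO-tFCI library lay below each WT-tFCI library in both genes, but only *Kif22* was called (-0.82 ± 0.19, adjusted p = 0.0136, against -0.30 ± 0.15 and 0.21 for *Kif20a*, edgeR, Benjamini-Hochberg). *Kif11*, which pushes the spindle poles apart, and *Kif23*, of the central spindle, were lower, at -1.0 and -0.86 (adjusted p = 0.0178 and 0.0381, edgeR, Benjamini-Hochberg). The other 4, *Kif20b*, *Kif2c*, *Kif4* and *Kif18a*, ran from -0.90 to -0.49 without a call. Of the stretches of 50 bases in *Kif20a*, 25.2% also occur in other genes, among which *Cdc23*, which overlaps it on the other strand, shares the most.

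The 7 genes of spindle assembly and cytokinesis rose in both genotypes, 7 of 7, and 3 were lower in miKO-tFCI. *Racgap1* (ENSMUSG00000023015.14, minus strand of chromosome 15, from 99620496 to 99651656), which with Kif23 forms centralspindlin, was at 3.97, 2.13 and 2.67 CPM in WT-Sham, 4.3, 6.66 and 5.0 in miKO-Sham, 41.4, 64.3 and 65.5 in WT-tFCI, and 15.2, 35.6 and 43.9 in miKO-tFCI. The highest miKO-tFCI library lay above the lowest WT-tFCI library, so that *Racgap1* was the single gene of the 22 whose groups overlapped. *Spag5* (ENSMUSG00000002055.9, plus strand of chromosome 11, from 78301529 to 78322457), a spindle pole protein also known as astrin, was at 0.601, 0.336 and 0.308 CPM in WT-Sham, 1.11, 1.39 and 0.384 in miKO-Sham, 14.5, 17.4 and 13.3 in WT-tFCI, and 5.88, 4.78 and 7.66 in miKO-tFCI. The differences were -0.91 ± 0.26 for *Racgap1* and -1.30 ± 0.34 for *Spag5* (adjusted p = 0.0374 and 0.0226, edgeR, Benjamini-Hochberg), and -0.72 for *Tpx2*, which activates Aurora A (adjusted p = 0.0268, edgeR with the same adjustment). *Anln*, *Nusap1*, *Prc1* and *Ect2* lay between -1.18 and -0.55 and were not called.

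The condensin genes were less alike. *Smc4* (ENSMUSG00000034349.14, plus strand of chromosome 3, from 69004738 to 69034623), a core subunit of both condensins, was at 14.1, 10.1 and 8.72 CPM in WT-Sham, 16, 10.8 and 14.6 in miKO-Sham, 64.4, 74.8 and 72.9 in WT-tFCI, and 42.2, 38.1 and 50.1 in miKO-tFCI. *Ncaph2* (ENSMUSG00000008690.15, plus strand of chromosome 15, from 89355719 to 89372826), the kleisin of condensin II, was at 119.7, 113 and 109.6 CPM in WT-Sham, 149, 146 and 149.7 in miKO-Sham, 164, 191 and 179 in WT-tFCI, and 142, 154 and 135 in miKO-tFCI. *Ncaph2* rose in WT mice (0.64 ± 0.12, adjusted p = 5.69e-04, edgeR, Benjamini-Hochberg) and was not called in miKO mice (-0.05 ± 0.12). *Smc4* was low after Sham, whereas *Ncaph2* had the highest level per kilobase of all 58 in the tFCI groups (42.4 CPM per kb in WT-tFCI) and was already at 27.2 in WT-Sham. In miKO-tFCI vs. WT-tFCI, *Smc4* and *Ncapd2* were lower (-0.70 ± 0.18 and -0.70 ± 0.20, adjusted p = 0.0182 and 0.0363, edgeR, Benjamini-Hochberg), and *Ncaph2* was not called (-0.31 ± 0.12, adjusted p = 0.113). The other 3, *Smc2*, *Ncapg* and *Ncaph*, lay at -0.49 ± 0.17, -0.73 ± 0.27 and -0.57 ± 0.22. Of the stretches of 50 bases in *Ncaph2*, 22.6% also occur in other genes, with the largest part in *Sco2*, which overlaps *Ncaph2* on the other strand.

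*Ncaph*, the kleisin of condensin I, stood apart from its partners. It was at 19.1, 25.1 and 25.4 CPM in WT-Sham, 9.3, 5.97 and 11.5 in miKO-Sham, 21.9, 37.9 and 33.3 in WT-tFCI, and 14.7, 19.7 and 28.3 in miKO-tFCI. In WT mice it was not called after tFCI (0.40 ± 0.22), while in miKO mice it rose by 1.18 ± 0.24 (adjusted p = 0.168 and 1.00e-03, edgeR, Benjamini-Hochberg), and the difference between these responses did not pass the test (0.78 ± 0.33, adjusted p = 0.221). After Sham all its miKO libraries lay below all its WT libraries. Per kilobase, the condensin I subunits *Ncapd2*, *Ncapg* and *Ncaph* spanned a ratio of 11.9 in WT-Sham, with *Ncaph* highest at 5.39 CPM per kb and *Ncapg* lowest at 0.454, and of 2.64 in WT-tFCI, between 2.74 (*Ncapg*) and 7.23 (*Ncapd2*).

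Cohesin and the genes of its release had the smallest share of calls after tFCI, 2 of 6 in WT and 1 of 6 in miKO mice. Among all genes 32.4% and 35.6% were called there, so that the share in WT mice was near that of all genes. *Smc1a* (ENSMUSG00000041133.11, plus strand of chromosome X, from 152016428 to 152062694), a ring subunit that also shapes chromatin loops in cells that do not divide, was at 92.2, 87.4 and 73.5 CPM in WT-Sham, 68, 69.6 and 73.6 in miKO-Sham, 104, 109.9 and 99.3 in WT-tFCI, and 89, 85.3 and 82.7 in miKO-tFCI. *Rad21* (ENSMUSG00000022314.10, minus strand of chromosome 15, from 51962240 to 51991747), the kleisin that closes the ring, was at 48.1, 30.4 and 31.8 CPM in WT-Sham, 35.8, 34.4 and 22.2 in miKO-Sham, 65.7, 56.8 and 63.5 in WT-tFCI, and 47.9, 41.1 and 41.8 in miKO-tFCI. *Rad21* rose in WT mice (0.78 ± 0.16, adjusted p = 0.00133, edgeR, Benjamini-Hochberg), while *Smc1a* and *Smc3* were not called in either genotype after tFCI. The shugoshin *Sgol1*, which protects cohesin at the centromere, rose by 4.22 ± 0.58 and 3.06 ± 0.58 (adjusted p = 3.63e-05 and 5.61e-04, edgeR, Benjamini-Hochberg). *Espl1* (separase) and *Pttg1* (securin, its inhibitor) were not called in any comparison. *Pttg1* was at 61.2, 57.3 and 56.8 CPM in WT-Sham, 66.8, 62.6 and 52.9 in miKO-Sham, 38.1, 40.7 and 42 in WT-tFCI, and 65.6, 39.5 and 48 in miKO-tFCI, and its WT-tFCI libraries lay below all its WT-Sham libraries (-0.53 ± 0.15, adjusted p = 0.0115, edgeR, Benjamini-Hochberg, with the fold change short of the limit). None of the 6 was called between the tFCI groups, where *Rad21* came closest (-0.51 ± 0.16, adjusted p = 0.0541, edgeR, Benjamini-Hochberg). Among all genes 8.76% were called in that comparison, and in 6 genes 0 calls are near that share.

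After Sham the genotypes differed in fewer members and in both directions. In miKO-Sham vs. WT-Sham, 7 members were higher and 2 lower (15.5% of the 58), and 15.2% of all genes tested were called, 8.35% higher and 6.84% lower, so that the share of members called was near that of all genes. Higher were *Mki67* (0.96 ± 0.22), *Top2a* (1.17 ± 0.19), *Cdk1* (0.68 ± 0.20), *Cdc20* (1.08 ± 0.32), *Kif22* (0.93 ± 0.30), *Ncapd2* (0.88 ± 0.24) and *Incenp* (0.82 ± 0.21). Lower were *Mad2l1* (-1.14 ± 0.29) and *Ncaph* (-1.35 ± 0.24), where *Mad2l1* was at 4.81, 4.93 and 7.59 CPM in WT-Sham and 3.19, 3.19 and 1.54 in miKO-Sham. Adjusted p-values of the 9 ran from 4.01e-04 (*Top2a*) to 0.0388 (*Kif22*, edgeR, Benjamini-Hochberg). The fitted median of the 58 was 0.54, beside 0.04 over all genes. Within batches 1 and 2 the median differences of log2 CPM were 0.23 and 0.40. These use a prior count of 2, which draws differences at low counts toward 0, so they are not the same measure. Batch 1 holds 1 library of each group. Calls of *Top2a* and *Ncaph* held under every alternative. The members called were 6 without miKO-Sham replicate 1 (13.4% of all genes), 10 without replicate 2 (12.4%), 11 with replicate 2 set to batch 1 (15.2%), and 9 with replicates 1 and 2 added up as 1 library (12.4%). When the Sham groups were fitted alone, 4 of the 47 members then tested were called, beside 17.6% of all genes. The microglia markers summed to 29282 to 38678 CPM in WT-Sham and 27254 to 32296 in miKO-Sham, with 4 of 10 called lower and 1 higher. They include *Cx3cr1*, of which CreER replaced 1 allele in miKO mice. Of the markers tested, those of endothelial cells and pericytes had 2 of 7 called higher and 1 lower, those of dendritic cells 1 of 7 each way, astrocytes 1 of 6 each way and oligodendrocytes 1 of 5 each way, while 1 of 9 of monocytes and infiltrating macrophages and 1 of 3 of neurons were higher and 1 of 3 of B cells was lower. No tested marker of neutrophils, border-associated macrophages, T and NK cells or oligodendrocyte precursors was called. The neutrophil markers summed to 1359 CPM in WT-Sham replicate 1 but 643 and 636 in replicates 2 and 3, and without that library 8 members were called. The part of these cells in the differences was not tested.

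**Figure D5:**
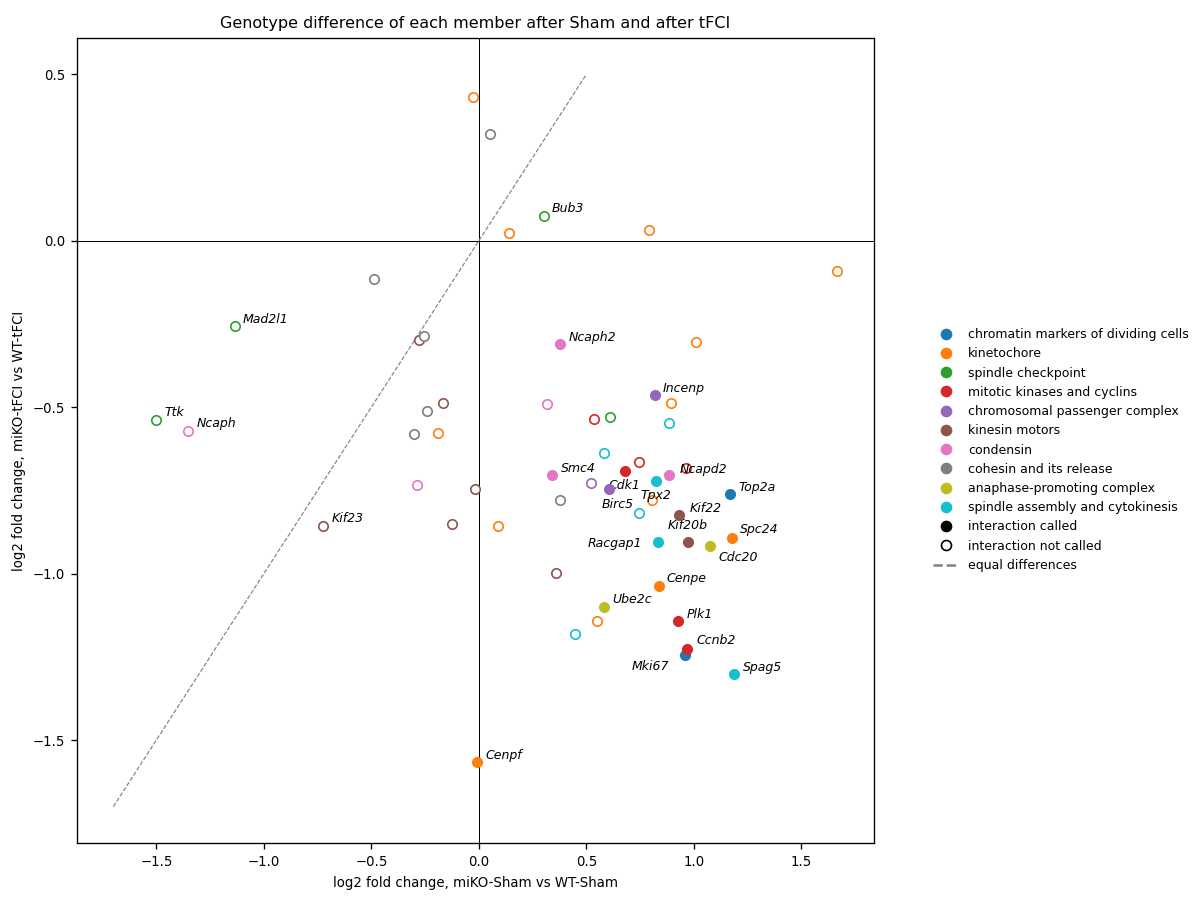
Log2 fold change between genotypes after Sham (horizontal) and after tFCI (vertical) for 57 members without *Bub1*, colored by role, filled where the interaction was called. The filled points lie below the dashed line of equal differences, 19 of 20 of them above 0 after Sham and below 0 after tFCI, and *Cenpf* at about 0 after Sham.

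There were 6 genes called in both genotype comparisons and in opposite directions, namely *Mki67*, *Top2a*, *Cdk1*, *Kif22*, *Ncapd2* and *Cdc20*. They are 66.7% of the 9 genes called after Sham and 27.3% of the 22 called after tFCI. All 6 were higher in miKO mice after Sham and lower after tFCI, which held for 23 of all 16451 genes tested (0.14%). There were 3 such members without miKO-Sham replicate 1 and 7 without replicate 2, of 16 and 22 genes in all. The 2 comparisons share no library, but they come from 1 fit with a common estimate of the spread and a common batch term. With the Sham groups fitted alone, *Cdk1*, *Kif22*, *Ncapd2* and *Cdc20* lost the call after Sham, and *Mki67* and *Top2a* kept it. The call of *Kif22* after Sham held in 9 of 23 alternatives. The interaction of genotype and surgery tests whether the change after tFCI differed between genotypes, and it passed an adjusted p of 0.05 for 20 of the 58 members, all 20 with a lower log2 change in miKO mice, where 3.95% of all genes were called, 2.68% in that direction and 1.26% in the other (edgeR, Benjamini-Hochberg). The median was -1.27, and 51 of 58 lay below 0. The smallest p-values were those of *Mki67* (-2.20 ± 0.27, adjusted p = 2.20e-04) and *Top2a* (-1.93 ± 0.24, adjusted p = 2.31e-04, edgeR, Benjamini-Hochberg). By role, the interaction was called in both chromatin markers, both genes of the anaphase-promoting complex, 3 of 13 kinetochore genes, 3 of 6 kinases and cyclins, 2 of 3 passenger genes, 2 of 8 kinesins, 3 of 6 condensins and 3 of 7 genes of spindle assembly and cytokinesis, and in 0 of 5 checkpoint and 0 of 6 cohesin genes. *Ncaph2* is among them without having risen in miKO mice. The number called was 10 without miKO-Sham replicate 1 (2.27% of all genes), 19 without replicate 2 (3.17%), 22 with replicate 2 set to batch 1 (5.5%) and 19 with both added up (3.44%). It was 9 and 12 without WT-Sham replicates 2 and 3 (2.00% and 1.88%), 8 and 9 without WT-tFCI replicates 2 and 3 (1.72% and 1.80%), and 10 without a batch term (1.94%). Calls of 8 genes held throughout (*Mki67*, *Top2a*, *Cenpe*, *Cdk1*, *Ccnb2*, *Kif22*, *Ncapd2* and *Cdc20*).

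A longer list of 72 other mitotic genes, written by hand with earlier results of these data known, had medians nearer 0. In WT-tFCI vs. WT-Sham 56 rose and 1 fell, with a median of 3.02, where 20.7% of all genes were called higher and 11.7% lower. In miKO-tFCI vs. WT-tFCI 14 were lower and 0 higher, where 4.80% of all genes were called lower and 3.96% higher. The median of the 72 was -0.54, and 65 of 72 lay below 0. The 5 with the smallest p were *Hjurp*, the chaperone of Cenpa (-0.90 ± 0.13), *Cdca3* (-1.24 ± 0.20), *Hmmr*, which acts at spindle poles (-1.07 ± 0.22), *Ckap2l* (-0.88 ± 0.18) and the kinesin *Kif15* (-1.05 ± 0.22), with adjusted p from 4.73e-04 to 0.00682 (edgeR, Benjamini-Hochberg). *Hjurp* was not called after tFCI in WT mice (-0.04 ± 0.13), rose in miKO mice (0.72 ± 0.14) and was lower in miKO mice already after Sham (-1.66 ± 0.14, adjusted p = 4.93e-07, edgeR, Benjamini-Hochberg). Its interaction was 0.76 ± 0.19 (adjusted p = 0.0334), opposite in sign to that of the 20 members. Of 14 regulators of mitotic genes, mostly subunits of the DREAM and MuvB complexes and of NF-Y, 0 were called between the tFCI groups. Among all genes 8.76% were called there, and the median of the 14 was -0.08. Single regulators differed from this median. *Foxm1* was at 4.25, 4.51 and 4.64 log2 CPM in WT-tFCI and 3.815, 3.64 and 3.63 in miKO-tFCI, without overlap. All miKO-tFCI libraries lay below all WT-tFCI libraries in 13.3% of all genes tested, and *Foxm1* was not called. *Tfdp1* was at 4.86, 5.24 and 5.43 in WT-tFCI and 5.26, 5.43 and 5.86 in miKO-tFCI, with overlap. The levels of the 14 in the WT-tFCI libraries summed to 446, 463 and 487 CPM and overlapped those in miKO-tFCI, which were 416, 449 and 519.7 CPM. After tFCI 4 of the 14 rose and 2 fell in WT mice, beside the 20.7% and 11.7% of all genes.

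Markers of cell types were compared between the tFCI groups as well, where 8.76% of all genes were called, 4.80% lower and 3.96% higher. In lists of 7 or 9 tested genes, 1 call is near that share. The 10 markers of microglia include *Cx3cr1*, of which CreER replaced 1 allele in miKO mice. Its lower level there cannot be told apart from that loss. The 10 summed to 20942 to 23284 CPM in WT-tFCI and to 10484 to 20267 in miKO-tFCI, 10 of 10 lay below 0 in the fold change and 5 were called lower. Against this, 10 markers of monocytes and infiltrating macrophages (led by *Fn1*) summed to 456 to 726 CPM in WT-tFCI and 728 to 1143 in miKO-tFCI with 1 of 9 tested called higher, and 10 of neutrophils (*Csf3r*) to 491 to 587 and 918 to 1259.5 with 3 of 9 higher. Border-associated macrophages (*F13a1*) ranged from 143 to 249.5 and from 254 to 749 CPM with 0 of 7 called, endothelial cells and pericytes (*Ly6c1*) from 56.4 to 178 and from 116 to 299.7 with 1 of 7 higher, and astrocytes (*Slc1a3*) from 165 to 276 and from 209.6 to 569 with 3 of 6 higher and 1 lower. Markers of dendritic cells (*Siglech*, also in the microglia list) summed to 866 to 1065 CPM in WT-tFCI and 355 to 620.3 in miKO-tFCI with 2 of 7 called higher and 1 lower, and those of B cells (*Ighm*) to 266 to 330.1 and 151 to 155 with 2 of 3 lower. Oligodendrocyte markers (*Cnp*) ranged from 178 to 256 and 195 to 281, those of their precursors (*Pdgfra*) from 29.5 to 44.4 and 25 to 48.8, T and NK cells (*Nkg7*) from 1.27 to 5.27 and 1.76 to 12.9, and neurons (*Rbfox3*) from 3.66 to 9.93 and 8.65 to 10.4 CPM. *Cd8a* and *Klrb1c* were at 0 counts in every miKO-tFCI library and *Cd3e* in every WT-tFCI library. miKO-tFCI replicate 1 had the lowest sum of microglia markers and the highest of monocyte, endothelial and astrocyte markers, and without it the median of the 58 members was -0.66 in place of -0.70. *Fn1* (-0.96 ± 0.58) and *Csf3r* (-0.43 ± 0.13) lay below 0, neither of them called, whereas the other tested markers of their lists lay above. Of the precursor markers 1 of 3 was higher and 1 lower, of the oligodendrocyte markers 2 of 5 were higher, and of T and NK cells 0 of 2 and of neurons 0 of 3 were called. The part of these other cells in the lower mitotic level was not tested.

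The same lists were compared between tFCI and Sham. Of all genes 20.7% were called higher and 11.7% lower in WT mice, and 21.7% higher and 13.9% lower in miKO mice. In WT mice the microglia markers summed to 29282 to 38678 CPM after Sham and 20942 to 23284 after tFCI (7 of 10 lower), those of monocytes and infiltrating macrophages to 40.3 to 103.5 and 456 to 726 (4 of 9 higher), and those of endothelial cells and pericytes to 16.8 to 23.0 and 56.4 to 178 (6 of 7 higher). In miKO mice 10 of 10 microglia markers were lower after tFCI, 7 of 9 markers of monocytes and infiltrating macrophages were higher, and 7 of 7 of endothelial cells and pericytes. The precursors of oligodendrocytes summed to 0.224 to 0.513 CPM in WT-Sham and 29.5 to 44.4 in WT-tFCI, and to 0.833 to 2.08 in miKO-Sham and 25 to 48.8 in miKO-tFCI, with 3 of 3 higher in both genotypes. Astrocyte markers had 4 of 6 higher and 1 lower in WT mice and 5 of 6 higher and 1 lower in miKO mice, and oligodendrocyte markers 3 of 5 higher and 1 lower in WT and 3 of 5 higher in miKO mice. Of neutrophil markers 1 of 9 was lower in WT mice, and 3 were higher and 1 lower in miKO mice. Dendritic cells had 3 of 7 higher and 1 lower in WT and 4 higher and 1 lower in miKO mice, border-associated macrophages 1 and 3 of 7 higher, and B cells 1 of 3 lower in each genotype. Neurons had 1 of 3 higher in both genotypes and 1 lower in miKO mice, and T and NK cells had 0 of 2 called. The part of all these cells in the rise of the mitotic genes was likewise not tested.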

How the data were processed

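Whole-number read counts per gene, 1 table per library, were deposited by the authors for 12 libraries of sorted microglia (SMART-Seq v4, paired-end). The submitters' processing notes name FastQC 0.11.9, Trim Galore, HISAT2 2.2.1, SAMtools and HTSeq 1.99.2, with mm10 and GRCm38.p6; the strand setting is not given in the sources used here, and the kit does not mark strand. Rows that name no gene were left out, so that 30.7% to 38.5% of counted reads lay on genes. Counts limit the precision of the Sham groups most.

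The 58 members and all gene lists were chosen with earlier results of these data known. Genes passing filterByExpr (16451) were fitted with group and batch over all 12 libraries in edgeR 4.0.16 (R 4.3.3, TMM, robust quasi-likelihood test) with Benjamini-Hochberg adjustment. Members were called when the adjusted p was below 0.05 and the log2 fold change exceeded 0.58 in either direction, and for the interaction at the adjusted p alone. The scripts were tested on simulated counts. Values of all libraries are given for *Mki67* and *Top2a* and, in each other role, for the gene with the highest mean CPM and that with the smallest p in miKO-tFCI vs. WT-tFCI, the next one where both are the same. *Ncaph* and *Pttg1*, and for the tFCI libraries *Foxm1* and *Tfdp1*, were added after their values were seen, as were genes that overlap a member and markers at 0 counts. *Cx3cr1* was named for its replaced allele. Of the longer list up to 5 called genes, and of the marker lists the most abundant gene, were named, except for 1 list, for which that gene is not reported here. Symbols and coordinates are from GENCODE M21 (GRCm38), with *Sgol1* listed there as *Sgo1*. Alternatives were DESeq2 1.42.0, RLE size factors, other filters, no batch term, batch 2 alone, a replicate block, only the groups compared, the adjusted p alone, and each library left out. Both alternatives for miKO-Sham replicates 1 and 2 were chosen after seeing the data.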

Additional observations from a re-analysis of the deposited data

Results flagged for a closer look

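The log2 change after tFCI differed between the genotypes in 20 of the 58 members, by the interaction of genotype and surgery at an adjusted p under 0.05 (edgeR, Benjamini-Hochberg), and each of these differences was negative, that is a lower log2 change in miKO mice. *Ncaph2* was not called after tFCI in miKO mice. Among all genes tested 3.95% were called. For the chromatin markers and the kinetochore the difference in log2 fold change was -2.20 for *Mki67*, -1.93 for *Top2a*, -1.87 for *Cenpe*, -1.56 for *Cenpf* and -2.07 for *Spc24*. In the kinases and cyclins it was -1.37 for *Cdk1*, -2.19 for *Ccnb2* and -2.07 for *Plk1*. The passenger complex and the kinesins had -1.35 for *Birc5*, -1.28 for *Incenp*, -1.88 for *Kif20b* and -1.76 for *Kif22*. Condensin had -1.05 for *Smc4*, -1.59 for *Ncapd2* and -0.69 for *Ncaph2*. The remaining genes had -1.99 for *Cdc20*, -1.68 for *Ube2c*, -1.54 for *Tpx2*, -2.49 for *Spag5* and -1.74 for *Racgap1*. *Incenp*, *Kif20b* and *Ncaph2* were called here but not in miKO-tFCI vs. WT-tFCI.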

How the results depend on the processing

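The direction of the member counts was the same under all alternatives and no called gene reversed. With at least 10 counts required in every library, 37 members were tested, and calls numbered 30 for tFCI in WT mice, 29 for tFCI in miKO mice and 14 in miKO-tFCI vs. WT-tFCI, fewer in part because fewer were tested. Without a batch term 10 were called in miKO-tFCI vs. WT-tFCI and 10 in the interaction, and with the Sham groups fitted alone 4 were called in miKO-Sham vs. WT-Sham, where 47 members were tested; the cause was not tested. Leaving out 1 library gave 7 to 27 calls in miKO-tFCI vs. WT-tFCI, 6 to 10 in miKO-Sham vs. WT-Sham and 8 to 21 in the interaction. The tFCI groups fitted alone gave 33 calls in miKO-tFCI vs. WT-tFCI (16.4% of all genes). Without the filter on low counts there were 32 (5.65%), and 29 in the interaction (3.54%). DESeq2 called 51, 49, 23 and 8 members in the 4 comparisons and 21 in the interaction. With the replicate block the counts were 51, 49, 23, 9 and 18; same-numbered libraries correlated in their deviations from group means from -0.061 to 0.666, not all above 0.1, and 7 of 12 libraries correlated best with their own number, so that the numbers were not taken as pairs. Replicate 1 also marks batch 1. Depth limits the Sham groups, where the median member had 18 to 25 counts.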
